A study of Mus musculus with 14 samples.

Results

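The comparison described here sets peritoneal macrophages of mice given SMD at 100 mg/kg before lipopolysaccharide (LPS) against those of mice given LPS without SMD. It uses 6 of the 14 arrays of the study, 3 in each group, chosen by their labelled treatment and not by any measured value. All mice were female F1 animals of a C57Bl/6 x C3H cross aged 12 to 16 weeks. SMD is named in the labels only by this abbreviation. It was put on the nares of halothane-anaesthetised mice in a volume of 50 µl, 30 min before ultra pure LPS of Salmonella minnesota was injected into a tail vein at 60 µg per mouse. The other 8 arrays come from mice given SMD at 200 or 300 mg/kg before the same LPS, with 3 arrays each, and from naive mice, with 2 arrays. The labels give a harvest 2.0 h after LPS for the SMD groups and give neither a time nor a vehicle treatment for the LPS group. They call the replicates biological and do not say whether an array held RNA of 1 mouse or of several, so the p-values measure the spread between these arrays. SMD 100 below stands for SMD at 100 mg/kg followed by LPS.

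LPS is a component of the cell wall of Gram-negative bacteria. Macrophages bind it through CD14 and the TLR4 and MD-2 receptor complex, which starts NF-kB, MAP kinase and interferon signalling and the release of cytokines such as TNF, interleukin 1 and interleukin 6. Cells under oxidant, thiol or metal stress use other programmes, among them NRF2, which drives glutathione and thioredoxin genes, HSF1, which drives heat-shock proteins, and MTF1, which drives zinc exporters and metallothioneins.

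Each array gave a signal for 45101 probe sets, scaled by the authors to one trimmed mean of 500, and the median signal of the 6 arrays lay between 65.1 and 79. Values were tested as log2(signal + 16), so that a fold understates the change of a dim gene, and the dimmest 40% by mean value were dropped, which kept 27022 probe sets of 12817 named genes. Macrophage markers were bright, with a signal summed over 21 markers of 269859 to 321422 on the 6 arrays, against 29401 to 40696 for 13 neutrophil markers and 66604 to 106111 for 15 B cell markers. The neutrophil sum held much Lcn2, 18203 of 39924 on LPS replicate 1, which read only 65.2 and 58.5 in naive mice. No macrophage marker lay under the filter threshold, a signal of 33.9, on all 6 arrays. The same held for the neutrophil, B cell, T and NK cell, mast cell, monocyte and dendritic cell, red cell and platelet lists. Only eosinophil Prg2 and mesothelial Upk3b lay under it on all 6. That threshold lies under the median signal of every array, so passing it does not show that a cell type was present. Platelet Ppbp, for example, read 3.2 to 77.9 in LPS and 2.5 to 58.6 in SMD 100. Bright B cell markers such as Ms4a1, at 12362 to 18181 in LPS and 9979 to 12704 in SMD 100, show that the cells were not macrophages alone. A smaller share of a cell type and less of its RNA per cell cannot be told apart in such bulk samples.

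Single arrays did not keep to their labels. The distance between arrays was taken as the median absolute log2 difference over the 27022 probe sets. The array nearest to SMD 100 replicate 3 was LPS replicate 1, at 0.323, followed by LPS replicate 3 at 0.350, whereas it lay 0.489 and 0.498 from SMD 100 replicates 1 and 2. LPS replicate 2 was the converse case. Its nearest arrays were SMD 100 replicate 2 at 0.389 and SMD 100 replicate 1 at 0.401, and it lay 0.445 and 0.490 from LPS replicates 1 and 3. The other 4 arrays had a smaller mean distance to their own group, 0.391 to 0.421, than to the other group, 0.464 to 0.501. The results below therefore give single arrays. Leaving out LPS replicate 2 alone called no gene, and the calls made without SMD 100 replicate 3 are given with their counts near the end.

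**Figure D1:**
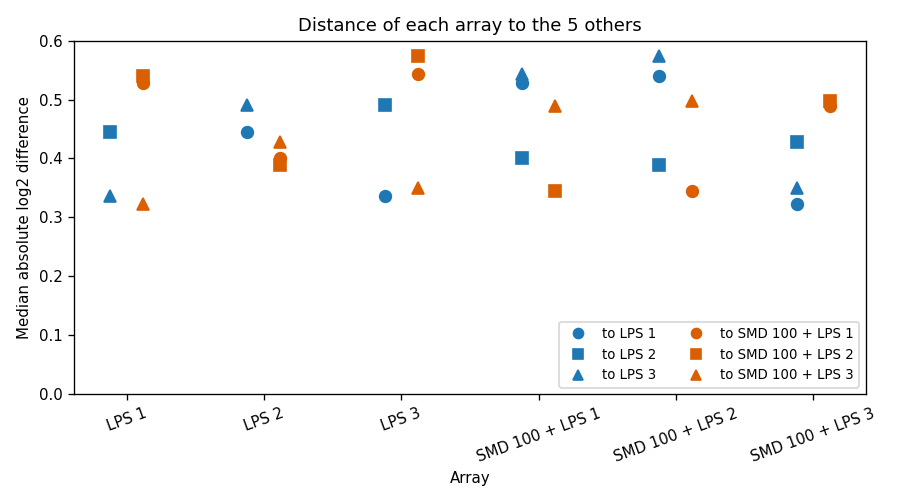
Distance of each of the 6 arrays (x axis) to the other 5 (y axis, median absolute log2 difference over 27022 probe sets); blue marks distances to LPS arrays, orange to SMD 100 arrays, and circles, squares and triangles are replicates 1, 2 and 3. SMD 100 replicate 3 lies 0.323 from LPS replicate 1 and 0.489 from SMD 100 replicate 1, and LPS replicate 2 lies 0.389 from SMD 100 replicate 2 and 0.490 from LPS replicate 3.

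The 3'/5' signal ratio of the actin control probe sets, which is higher where the 5' ends of transcripts are lost, ordered the arrays in nearly the same way. It was 1.93, 5.86 and 2.17 on LPS replicates 1, 2 and 3 and 4.33, 11.6 and 2.72 on SMD 100 replicates 1, 2 and 3. The ratio of LPS replicate 2 thus lay among those of SMD 100, and that of SMD 100 replicate 3 next to LPS replicates 1 and 3. The Gapdh ratio was 4.54, 92.1 and 16.8 in LPS and 30.0, 74.2 and 21.0 in SMD 100. The mean log2 ratio was 0.83 higher in SMD 100 for actin and 0.91 higher for Gapdh. The two-sided exact permutation test gave p = 0.4 and 0.5, but with 3 against 3 arrays it cannot go below 0.1, so it does not show that the groups were alike. C1qa, a chain of the complement component C1q made by macrophages, was named as a single-array extreme and varied widely between the arrays. Its signal was 6059, 340 and 2489 in LPS and 1105, 323 and 2770 in SMD 100, so that its highest value fell on the array with the lowest actin ratio and its lowest on the array with the highest. The order did not hold throughout, since LPS replicate 3 had a lower actin ratio than SMD 100 replicate 3 and also less C1qa. C1qb, another chain of C1q, did not vary in this way, with 16669 to 18810 in LPS and 16442 to 21259 in SMD 100. The part of RNA quality in the gene results was examined only by adding the actin ratio to the fit as a covariate. Those values stand beside some of the results of SMD 100 against LPS. Since the mean ratio differed between the groups, a difference that shrinks in that fit cannot be assigned to RNA quality or to SMD.

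**Figure D2:**
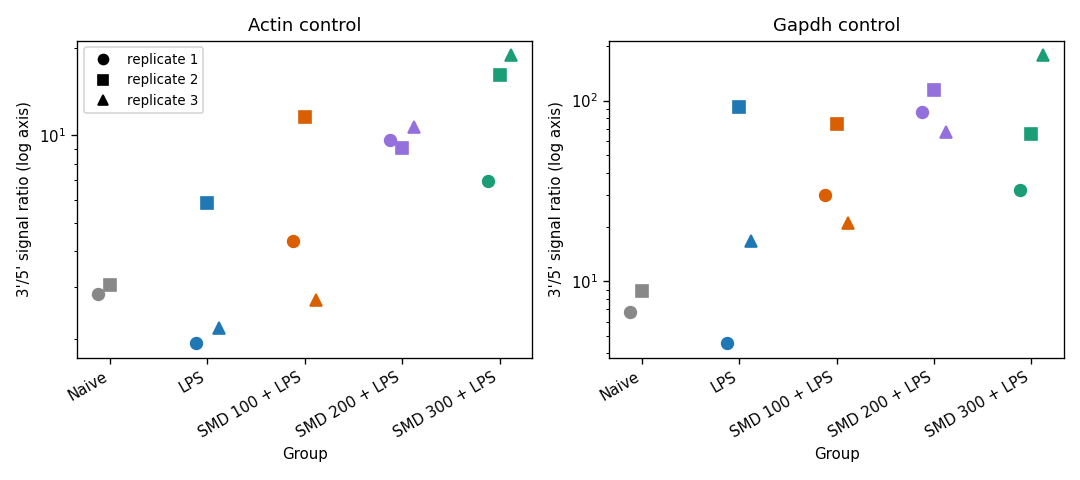
The 3'/5' signal ratio of the actin (left) and Gapdh (right) control probe sets on all 14 arrays (log axes), by group (x axis), with circles, squares and triangles for replicates 1, 2 and 3. The actin ratio of LPS replicate 2 (5.86) lies among the SMD 100 arrays, whose replicate 3 (2.72) lies near LPS replicates 1 and 3 (1.93 and 2.17).

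With all arrays at equal weight, the limma test called no probe set at an adjusted p under 0.05: 0 of 27022, or 0%, with a smallest adjusted p of 0.193. With weights estimated for each array, limma called 301 (1.11%), 176 higher and 125 lower. The weights were lowest for SMD 100 replicate 3 (0.457) and LPS replicate 2 (0.530), the arrays that lay nearest to the other group. Counting these arrays less favours larger differences, so the weighted calls are no independent result. Among the 89 genes followed through the alternatives 36 were called, but these genes were named from these same data, which favours calls among them. Adjusted p-values below are those of equal weights unless stated. At an unadjusted p under 0.05 there were 1271 probe sets higher in SMD 100 (4.7%) and 1157 lower (4.28%). On 1483 probe sets all SMD 100 arrays lay above all LPS arrays (5.49%), and on 1453 they lay below (5.38%). Of these, 412 were higher (1.52%) and 420 lower (1.55%) by a mean of 1 log2 or more. Taking the brightest probe set for each of the 12817 genes, 5.9% were higher and 4.06% lower at an unadjusted p under 0.05, and the groups did not overlap for 6.03% in the higher and 5.04% in the lower direction. The counts in gene groups below are read against these 4 shares, and a gene is called separated where its SMD 100 and LPS arrays do not overlap. With 3 against 3 arrays and no effect, the groups separate in either direction with a probability of 0.1, the smallest p of the exact permutation test above. The shares separated in both directions together lay near that value, so separation alone does not show an effect of SMD. Among 314 genes whose brightest probe set was separated by 1 log2 or more, the other 116 tested probe sets of these genes had the same direction in 78 cases and were themselves separated in 22.

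Several genes of thiol and peroxide defence were higher on every SMD 100 array. Of 30 measured genes of the NRF2, glutathione and thioredoxin list, 5 were separated and higher and 1 was separated and lower, and these same 6 genes had an unadjusted p under 0.05. The median difference of the list was 0.12 log2, against 0.01 over all genes. Its mean over genes, set against the mean of the LPS arrays, was 0.17, 0.15 and 0.31 higher on SMD 100 replicates 1, 2 and 3, so that the array that resembled LPS over all probe sets stood highest here.

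Srxn1, which encodes sulfiredoxin, the enzyme that restores over-oxidised peroxiredoxins, gave signals of 322, 299 and 552 on the LPS arrays and 1053, 1422 and 2055 on the SMD 100 arrays. The highest of the 6 values was that of SMD 100 replicate 3. The difference was 1.91 ± 0.39 log2 (SE, n = 3 and 3; limma adjusted p = 0.225), and it was 2.27 with the actin ratio in the fit. The other 3 probe sets of Srxn1 were higher by 0.59, 0.18 and 1.35.

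Gclm, the modifier subunit of the enzyme that limits glutathione synthesis, read 216, 323 and 366 in LPS and 598, 714 and 810 in SMD 100. Again replicate 3 was the highest of the SMD 100 arrays, and the groups did not overlap (1.21 ± 0.31 log2, adjusted p = 0.316; 1.34 on its other probe set). Catalase (Cat), which breaks down hydrogen peroxide, was separated by a smaller margin, with 5263, 7405 and 5826 in LPS and 7493, 9214 and 8089 in SMD 100 (0.43 ± 0.14 log2, adjusted p = 0.427). The other separated genes of the list were Slc7a11, the cystine importer, higher by 0.91, and Gsr, glutathione reductase, higher by 0.37. Both were named after their values were seen. Other members did not follow. Nqo1, a quinone reductase, was dim and lower, at 74.5, 68.4 and 100 in LPS and 11.9, 11.6 and 29.5 in SMD 100 (-1.55 ± 0.65 log2, adjusted p = 0.511). Hmox1, heme oxygenase, overlapped between the groups, with 1328, 1115 and 1746 against 640, 1274 and 2531, and the SMD 100 arrays alone covered a wider range than the LPS arrays.

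Zinc transporters went both ways. Slc30a1, which exports zinc across the plasma membrane, had signals of 286, 255 and 409 in LPS and 592, 658 and 880 in SMD 100. Its difference was 1.13 ± 0.24 log2 (adjusted p = 0.246), 1.73 on its other probe set and 1.35 with the actin ratio in the fit. The importer Slc39a10 ran the other way, with 2876, 3038 and 2522 in LPS against 1419, 1535 and 1948 in SMD 100 (-0.79 ± 0.21 log2, adjusted p = 0.316). Its other probe set was lower by 1.05 on the log2 scale (-1.05). Slc39a1, another importer, was higher, with 748, 1711 and 1718 against 2096, 3092 and 1795, where SMD 100 replicate 3 stood only just above the LPS arrays. Over 18 measured genes of metal binding and transport the median difference was -0.02, and 2 were separated in each direction. The metallothioneins Mt1, Mt2 and Mt3 were measured, and none of them was separated or had an unadjusted p under 0.05.

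The promoters of 30 genes, namely the 4 genes of smallest p in the NRF2 list and in the heat-shock list and the 24 genes named by size below (some of them in both), were searched on both strands for the antioxidant response element to which NRF2 binds, written TGACNNNGC, over the 250 bases before the start site. It was found for 4 of the 25 genes with a promoter in the RefSeq table (build GRCm38.p6), Gclm, Adm, 1 of the 3 starts of Mid1 and 1 of the 2 of Cbfa2t3. It was found in 10.2% of all 32851 promoters of that length. That share counts single promoters, whereas a gene with several starts counts if any of them matches, so the count of genes cannot be set against it. A match is a description of the letters and not of a bound site. Slc30a1 was not one of these genes and counts in neither share. It is shown with Gclm, chosen after its match was seen, because its SMD 100 arrays had the same order, with replicate 3 the highest. Srxn1 had that order too but no match. Cat and Nqo1, the other NRF2-list genes searched, had no match either. The Gclm window is chr3:122245307-122245556 and the Slc30a1 window chr1:191906531-191906780, both on the + strand of the gene. Capitals mark the match, which lies on the opposite strand in both and starts 134 bases before the start site of Gclm and 82 bases before that of Slc30a1.
Gclm: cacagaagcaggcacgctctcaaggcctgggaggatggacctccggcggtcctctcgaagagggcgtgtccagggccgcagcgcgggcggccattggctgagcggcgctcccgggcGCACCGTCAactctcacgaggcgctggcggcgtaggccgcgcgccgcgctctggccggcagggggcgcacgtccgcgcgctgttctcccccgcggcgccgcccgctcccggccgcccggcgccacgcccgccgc
Slc30a1: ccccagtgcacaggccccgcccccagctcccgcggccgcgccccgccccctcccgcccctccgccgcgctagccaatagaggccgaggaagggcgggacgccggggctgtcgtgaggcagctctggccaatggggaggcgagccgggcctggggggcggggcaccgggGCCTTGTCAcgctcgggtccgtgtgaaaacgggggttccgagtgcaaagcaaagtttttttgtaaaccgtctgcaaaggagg

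Heat-shock genes were split. Of 16 measured genes of the list, 2 were separated and higher and 1 separated and lower, with a median of 0.11. Hspa1b, an inducible HSP70, had signals of 1912, 2534 and 2848 in LPS and 4504, 9110 and 4326 in SMD 100, and its 3 probe sets were higher by 1.22, 1.30 and 1.27 (first probe set: SE 0.36, adjusted p = 0.375). Hspa1b has a near-identical neighbour, Hspa1a, whose transcript such probe sets may also bind. On the brightest probe set named for Hspa1a the groups overlapped, and its unadjusted p was not under 0.05. Hspb1, a small heat-shock protein, read 526, 529 and 686 in LPS and 1088, 4278 and 801 in SMD 100 (1.41 ± 0.46 log2, adjusted p = 0.422). Most of that difference lay in SMD 100 replicate 2, the array with the highest actin ratio, and with the actin ratio in the fit the value was 1.07. Stip1, the co-chaperone that joins HSP70 to HSP90, was low on 2 arrays only. Its signals were 1572, 789 and 1158 in LPS and 302, 250 and 1239 in SMD 100, where replicate 3 lay inside the LPS range.

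A heat-shock element, written GAANNTTC, reads the same on both strands. It was present in the 250 bases before the start of 4 of the same 25 genes, Hspb1, Hspa1b, Top2a and 1 of the 6 starts of Sgms2. It was present in 6.69% of all promoters, a share of single promoters that again cannot be set against a count of genes. Stip1 and Dnajb4, the other heat-shock genes searched, had no match. The sequences of Hspb1 and Hspa1b are shown since these were the separated heat-shock genes on the higher side. Hspb1 holds it at 117 and 97 bases before the start site (chr5:135887669-135887918, + strand) and Hspa1b at 104 bases (chr17:34959239-34959488, - strand, written in the direction of the gene), with the matches in capitals.
Hspb1: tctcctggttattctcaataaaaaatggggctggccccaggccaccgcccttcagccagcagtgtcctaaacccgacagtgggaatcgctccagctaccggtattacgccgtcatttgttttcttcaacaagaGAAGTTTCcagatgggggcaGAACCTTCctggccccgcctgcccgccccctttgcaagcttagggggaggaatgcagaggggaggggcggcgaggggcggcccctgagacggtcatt
Hspa1b: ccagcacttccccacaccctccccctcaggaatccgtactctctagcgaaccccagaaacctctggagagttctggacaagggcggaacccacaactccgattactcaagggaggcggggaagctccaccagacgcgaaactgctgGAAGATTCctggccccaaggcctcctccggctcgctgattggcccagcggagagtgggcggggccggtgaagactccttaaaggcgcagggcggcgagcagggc

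Among signalling genes, Adm and Mapk14 had the smallest adjusted p of the whole comparison, 0.193. Adm encodes adrenomedullin, a vasodilator peptide. Its signals were 4172, 5302 and 3970 in LPS and 13514, 15495 and 7570 in SMD 100, all 3 above the LPS range, with replicate 3 the lowest. The difference was 1.39 ± 0.26 log2 with an adjusted p of 0.193, and 0.99 on its other probe set. Without SMD 100 replicate 3 it was 1.70 (adjusted p = 0.00721), and with the actin ratio in the fit 1.05 (adjusted p = 0.28). Mapk14, the p38 alpha kinase, read 1218, 1478 and 1620 in LPS and 2748, 3636 and 2286 in SMD 100 (0.98 ± 0.18 log2, adjusted p = 0.193). Its other 3 probe sets did not share this, with differences of 0.12, -0.44 and 0.25.

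Other signalling genes were separated by smaller steps. Tnfsf9, the costimulatory 4-1BB ligand, had signals of 2382, 2516 and 1755 in LPS and 5023, 5578 and 3346 in SMD 100 (1.05 ± 0.23 log2, adjusted p = 0.267). Ampd3, an AMP deaminase, was at 2867, 3975 and 3217 against 6170, 7187 and 4441 (0.81 ± 0.20 log2, adjusted p = 0.316). On both genes the lowest SMD 100 array was replicate 3. Of 39 early response and MAP kinase genes, 4 were separated and higher and 2 separated and lower. They included Dusp16, a phosphatase of JNK and p38 (0.55 ± 0.18 log2), and Maff, a small MAF factor that can pair with NRF2 (274, 345 and 328 in LPS against 489, 628 and 453; 0.69 ± 0.24 log2, adjusted p = 0.447).

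No cytokine of the LPS response was called with all arrays at equal weight. Tnf gave 1566, 1331 and 1419 in LPS and 2083, 2326 and 1962 in SMD 100. The groups did not overlap and the LPS arrays were close together, yet the fitted error, which shares the spread of all 14 arrays, left the difference at 0.56 ± 0.28 log2 (adjusted p = 0.57). Il6 was at 3218, 4165 and 3062 in LPS and at 8916, 10954 and 2998 in SMD 100. Its first 2 SMD 100 arrays stood above the LPS arrays, and replicate 3 was the lowest of the 6. The difference was 0.94 ± 0.31 log2 (adjusted p = 0.422), and without that array 1.51 (adjusted p = 0.00074), the smallest adjusted p of that fit. With array weights it was 1.27 (adjusted p = 0.0304), and with the actin ratio in the fit of all arrays 0.56 (adjusted p = 0.77).

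Il1b overlapped, with 7335, 8058 and 9320 in LPS against 10274, 12941 and 7719 in SMD 100 (0.30 ± 0.21 log2). Ptgs2, the inducible prostaglandin synthase, showed the same pattern by array, with 2003, 2399 and 1810 against 3392, 3510 and 1886. Il10 (-0.22 ± 0.28 log2), Cxcl10 (-0.07 ± 0.26), Il12b (-0.59 ± 0.60) and Ifnb1 (0.25 ± 0.51) also overlapped. The signs of Il12b and Cxcl10 turned when SMD 100 replicate 3 was left out, to 0.16 and 0.09. Nos2 was too dim to be tested.

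Receptor genes differed by little or not in one direction. Cd14 was separated and lower by little, at 43632, 42761 and 46209 in LPS and 37828, 38522 and 38081 in SMD 100 (-0.21 ± 0.10 log2, adjusted p = 0.561). The 4 probe sets of Tlr4 disagreed, with 0.80 on the brightest and -0.69, -0.51 and -0.26 on the others. Ptger4, a prostaglandin E2 receptor, read 3822, 4887 and 2936 in LPS and 7388, 9558 and 4150 in SMD 100, where replicate 3 again lay within the LPS range (0.80 ± 0.23 log2, adjusted p = 0.37). Over 18 cytokines, 23 chemokines and 20 receptor and TLR signalling genes the median differences were -0.07, -0.07 and 0.07, with 2, 1 and 1 genes separated on the higher and 2, 2 and 1 on the lower side. Of the chemokines, Ccl22, which attracts regulatory T cells, read 277, 248 and 586 in LPS and 149, 148 and 148 in SMD 100 (-1.13 ± 0.38 log2, adjusted p = 0.431).

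Genes lower on every SMD 100 array included a lectin and a transcription factor of immune cells. Clec2d, a lectin-like ligand of an inhibitory natural killer cell receptor, gave 1181, 1107 and 2030 in LPS and 430, 488 and 387 in SMD 100. Here replicate 3 was the lowest of the SMD 100 arrays. The difference was -1.64 ± 0.35 log2 (adjusted p = 0.246), -1.56 without that array and -1.81 with the actin ratio in the fit. Irf4, a transcription factor of B cells and of alternatively activated macrophages and dendritic cells, gave 1336, 625 and 1197 in LPS and 363, 186 and 587 in SMD 100. The highest SMD 100 value, 587 on replicate 3, lay just under the lowest LPS value, 625 on replicate 2 (-1.50 ± 0.34 log2, adjusted p = 0.267). Without both of these arrays the difference was -2.21, and with the actin ratio in the fit -0.99.

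Other secreted or regulatory genes were also separated and lower. Lcn2, lipocalin 2, an LPS-induced iron-scavenging protein, was at 18203, 14264 and 16693 in LPS and 10964, 8002 and 12559 in SMD 100 (-0.66 ± 0.22 log2, adjusted p = 0.431). Il1rn, the interleukin 1 receptor antagonist, was at 22452, 21598 and 24398 against 14482, 14596 and 19047 (-0.52 ± 0.30 log2, adjusted p = 0.612). Cdkn1a, the p21 inhibitor of the cell cycle, was at 2448, 1289 and 2189 against 663, 1151 and 1241 (-0.94 ± 0.26 log2, adjusted p = 0.344). Hvcn1, the voltage-gated proton channel of phagocytes and B cells, was at 1637, 1304 and 1859 against 649, 403 and 1192 (-1.20 ± 0.30 log2, adjusted p = 0.301).

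By size, 24 genes were named as the 12 largest differences in each direction among separated genes with an unadjusted p under 0.01 and a mean in the higher group at or above the median of all tested probe sets, a signal of 201. Some of them, among these Srxn1, Hspb1, Adm, Clec2d, Irf4 and Hvcn1, are already described above. The 24 genes had log2 differences of 1.23 to 3.09 on the higher side and -1.14 to -1.78 on the lower. The largest of them, Mid1, a ubiquitin ligase of microtubules, had LPS values of 1005, 189 and 42.1, so that its 3.09 ± 0.96 log2 rests on LPS arrays that differed among themselves by more than from some SMD 100 arrays, which read 2945, 1558 and 1591. Apba1, an adaptor of vesicle transport, was at 33.4, 75.2 and 63.7 against 223, 285 and 151. Sgms2, a sphingomyelin synthase, was at 429, 686 and 358 against 1886, 1878 and 702, and both of its probe sets were separated. On the lower side Bambi-ps1, a pseudogene of a TGF-beta decoy receptor, was at 423, 205 and 277 against 66.2, 59.4 and 96.5. In 8 genes with several tested probe sets, all of them separated the groups by 1 log2 or more: Sgms2, Adgrl4, Iftap, Hspa1b, Slc30a1, Sec22c and Dscam on the higher side and Tifab on the lower.

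**Figure D3:**
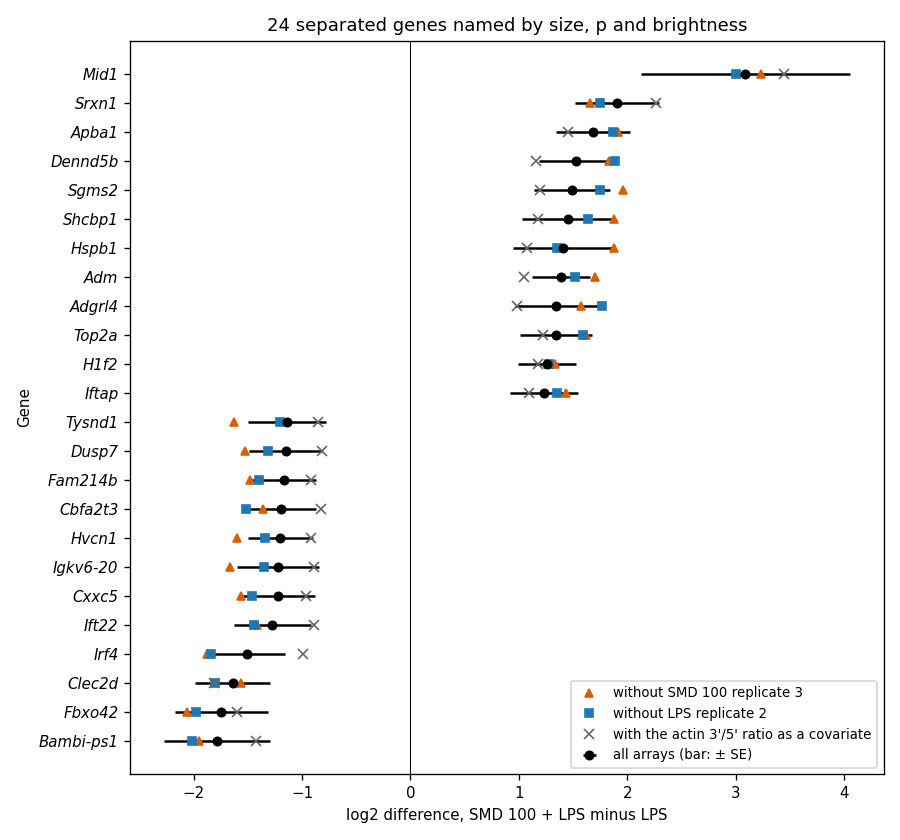
The 12 largest higher and 12 largest lower genes among separated genes with an unadjusted p under 0.01 and a higher-group mean at or above the median of tested probe sets: log2 difference of SMD 100 against LPS (x axis) with all arrays (black, bar ± SE), without SMD 100 replicate 3 (orange), without LPS replicate 2 (blue) and with the actin 3'/5' ratio as a covariate (crosses). All 24 keep their direction in these fits, from -1.78 for Bambi-ps1 to 3.09 for Mid1 with all arrays; the genes were picked for separated groups, so the direction is no independent result.

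Several interferon-related genes placed SMD 100 replicate 3 among the LPS arrays, and others did not. Of 40 measured genes none was separated and higher and 3 were separated and lower (by 0.45 log2 or less), with a median of -0.16. The mean of the list, against the mean of the LPS arrays, was -0.13, -0.48 and -0.04 on SMD 100 replicates 1, 2 and 3, and -0.17 to 0.13 on the LPS arrays themselves. Oas3, a sensor of viral double-stranded RNA, read 2683, 2009 and 2984 in LPS and 1359, 857 and 3171 in SMD 100, where replicate 3 was the highest of all 6 (-0.70 ± 0.36 log2, adjusted p = 0.572). Ikbke, an interferon-inducing kinase of the TLR signalling list, read 4620, 1846 and 3756 against 1179, 1109 and 4194. Irf7, the factor that amplifies type I interferon, read 6446, 2698 and 6514 against 2328, 1672 and 5086. In Ikbke and Irf7 the LPS replicate nearest to SMD 100 was replicate 2. With the actin ratio in the fit the differences of Oas3, Ikbke and Irf7 were -0.43, -0.31 and -0.38.

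Amino acid response genes differed in how they placed SMD 100 replicate 3. Slc7a5, a leucine importer, had signals of 2314, 1738 and 2712 in LPS and 673, 606 and 2524 in SMD 100. Ddit4, an inhibitor of mTORC1, had 2694, 1826 and 2708 against 936, 811 and 2170. In both genes SMD 100 replicates 1 and 2 lay under all LPS arrays and replicate 3 lay among them. Phgdh, the first enzyme of serine synthesis, had 1803, 1737 and 2091 against 1366, 1106 and 1454, with replicate 3 under every LPS array. Of 28 measured genes of the ATF4 list 0 were separated and higher and 3 separated and lower, with a median of -0.21, and none was higher and 4 were lower at an unadjusted p under 0.05.

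Of 15 B cell markers 0 were separated and lower and 1 separated and higher, while 4 were lower and 1 higher at an unadjusted p under 0.05, with a median of -0.31. Cd79a, a chain of the B cell receptor, read 4314, 1419 and 3833 in LPS and 871, 575 and 3099 in SMD 100. Spib, a B cell and plasmacytoid dendritic cell factor, read 1378, 593 and 1442 against 400, 74.4 and 636. The mean of 15 B cell markers, against the mean of the LPS arrays, was -0.44, -0.69 and 0.11 on SMD 100 replicates 1, 2 and 3 and -0.17 on LPS replicate 2. The separated marker was Cr2, complement receptor 2, which was higher (121, 211 and 159 against 295, 413 and 256). The difference of Cd79a was -1.29 ± 0.54 log2 (adjusted p = 0.504), and -0.38 with the actin ratio in the fit. The share of B cells, the RNA quality and the SMD treatment cannot be told apart in these values.

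Dendritic cell marker Cd209a was separated and lower, at 5797, 4714 and 4755 in LPS and 2202, 2637 and 4072 in SMD 100 (-0.82 ± 0.26 log2, adjusted p = 0.42). Of 10 measured monocyte and dendritic cell markers none was separated and higher and 2 were separated and lower. Their median was -0.30, and their differences ran from -1.50 to 0.49. Of 11 mast cell markers 2 were separated and higher and 2 separated and lower, with a median of 0.05, and the 21 macrophage markers had a median of 0.03, with none separated and higher and 2 separated and lower. The summed neutrophil signal was 29401 on SMD 100 replicate 3 and at least 38387 on the other 5 arrays. Of 12 tested neutrophil markers none was separated and higher and 2 were separated and lower, with a median of -0.09. Camp, a granule peptide of neutrophils named as a single-array extreme, read 12.3 on SMD 100 replicate 3 and 206 to 293 on the others. Not all markers were low on that array. Csf3r read 3258 there against 1701 and 1644 on SMD 100 replicates 1 and 2, and Lcn2 was also highest there among the SMD 100 arrays. The part of neutrophils in the placement of that array was not tested.

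**Figure D4:**
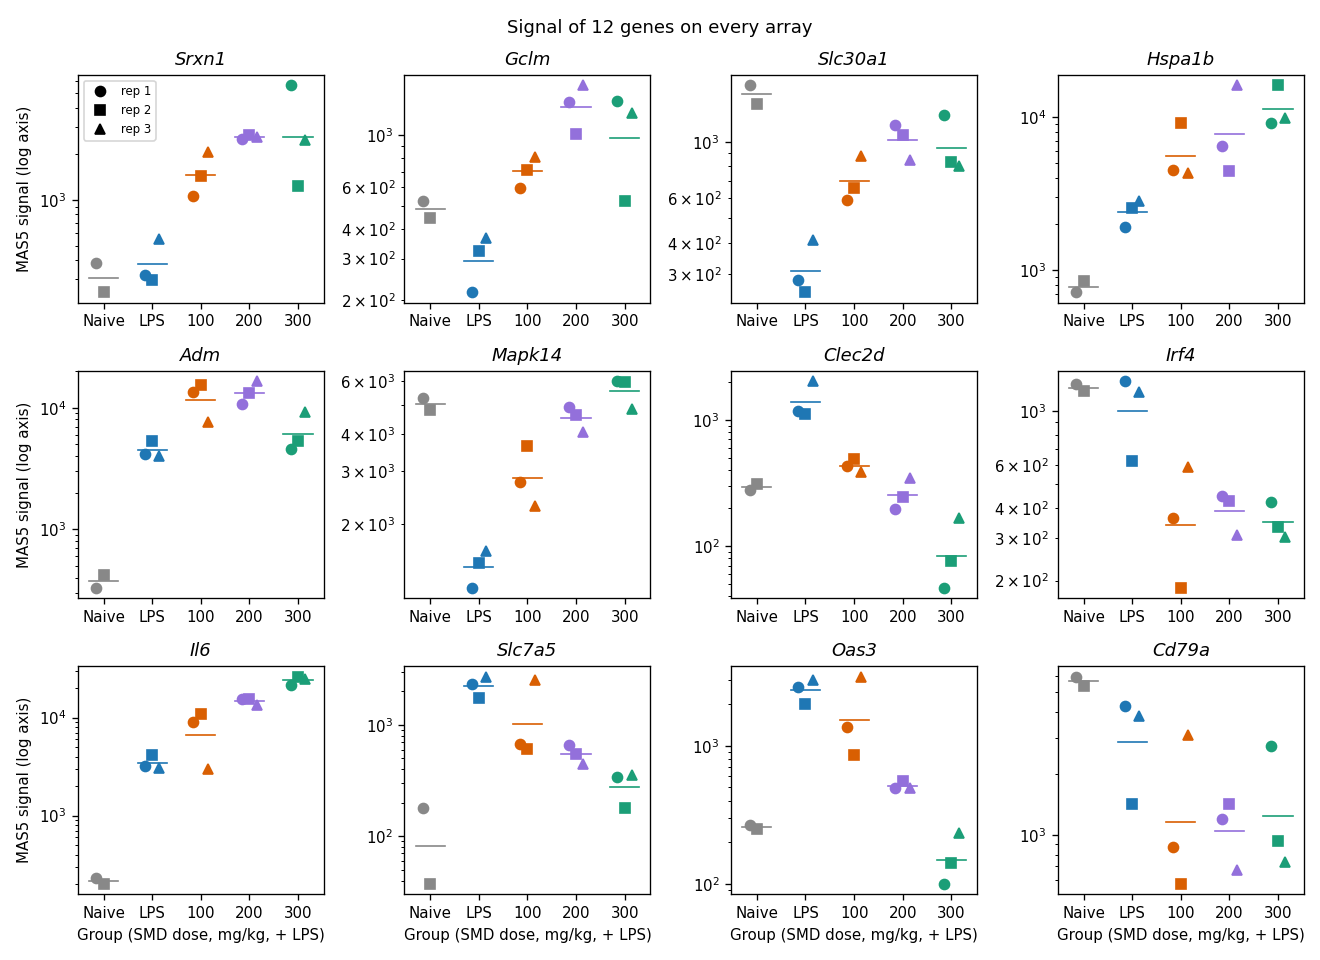
Signal of 12 genes on all 14 arrays (log axes) by group, with the SMD dose in mg/kg; circles, squares and triangles are replicates 1, 2 and 3, and lines are geometric means. In Srxn1, Gclm and Slc30a1 SMD 100 replicate 3 is the highest SMD 100 array, while in Il6, Slc7a5, Oas3 and Cd79a it lies with the LPS arrays or beyond them.

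Cell division genes owed much to 1 array. Of 38 measured genes 6 were separated and higher and 1 separated and lower, and 11 were higher and 2 lower at an unadjusted p under 0.05, with a median of 0.29. The mean of the list, against the LPS arrays, was 0.81 higher on SMD 100 replicate 1, -0.05 on replicate 2 and 0.19 on replicate 3. Top2a, a topoisomerase of dividing cells, read 279, 363 and 155 in LPS and 1164, 558 and 443 in SMD 100 (1.34 ± 0.33 log2, adjusted p = 0.301), and its other probe set was at -0.86. Rrm2, a subunit of ribonucleotide reductase, read 253, 130 and 162 against 751, 293 and 245. In both genes replicate 1 was the highest SMD 100 array by a wide margin.

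Other gene groups differed in how many members were separated. Among 21 endoplasmic reticulum chaperone genes only Canx, calnexin, was separated, with 6017, 6985 and 6666 in LPS and 9119, 9173 and 9392 in SMD 100. These 3 SMD 100 values were close together, replicate 3 included (0.49 ± 0.12 log2, adjusted p = 0.267). Of 16 ribosomal protein genes 4 were separated and lower, where 5.04% of all genes were, and 1 was separated and higher. Rplp0 was lower, at 40344, 38576 and 45959 against 31835, 31147 and 33469 (-0.37 ± 0.11 log2). Of 22 cholesterol genes 5 were lower and none higher at an unadjusted p under 0.05, where 4.06% of all genes were lower. Among them only Sqle, squalene epoxidase, was separated (441, 410 and 477 against 214, 243 and 312). Medians of the NF-kB, anti-inflammatory, glucocorticoid target, antimicrobial, prostaglandin, antigen presentation, apoptosis, glycolysis and respiratory chain lists lay between -0.14 and 0.04.

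**Figure D5:**
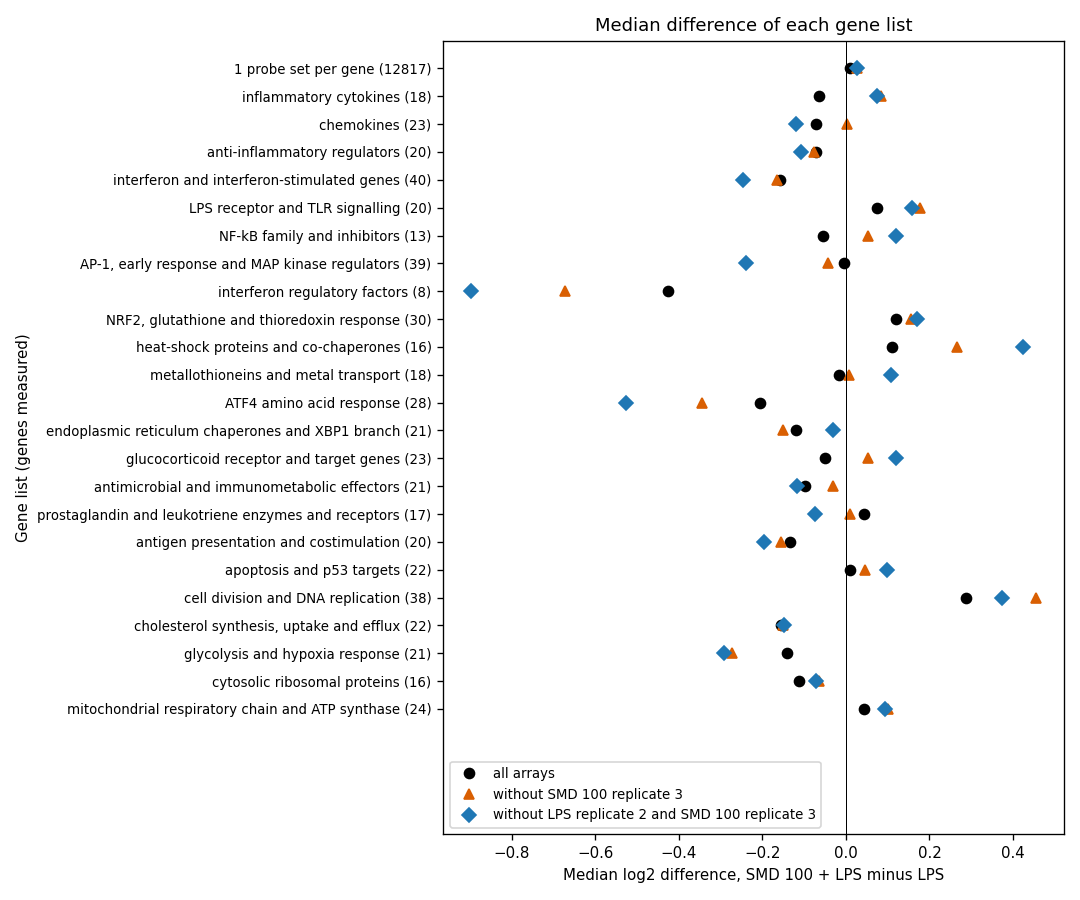
Median log2 difference of SMD 100 against LPS (x axis) for each of 23 gene lists and for all genes (y axis, number measured in brackets), with all arrays (black), without SMD 100 replicate 3 (orange) and without both that array and LPS replicate 2 (blue). With all arrays the medians run from -0.43 for the interferon regulatory factors to 0.29 for cell division; the other symbols leave out arrays picked for lying near the other group, which enlarges differences by construction.

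Leaving out SMD 100 replicate 3 gave 470 called probe sets, 235 higher and 235 lower (1.74% of those tested). Of the 89 genes followed, named by a rule that used these data and the largest calls of this fit, 40 were called. Besides Il6 and Adm they included Sgms2 (1.96, adjusted p = 0.00721), Hvcn1 (-1.60, adjusted p = 0.00933), Spib (-2.47, adjusted p = 0.0279) and Nab2, a corepressor of EGR factors (-2.83, adjusted p = 0.0228). In the gene lists this fit called Srxn1 (1.66, adjusted p = 0.0499) as the 1 gene of the NRF2 list, and Hspb1 (1.88, adjusted p = 0.0402) and Stip1 (-1.98, adjusted p = 0.0178) of the heat-shock list. It called Slc7a5 (-1.77) and Ddit4 (-1.43) of the ATF4 list, Bst2 (-1.11) and Oas3 (-1.21) of the interferon list, and 4 B cell markers, all lower, among them Cd79a (-1.99), Spib and Ighm (-0.76). Mapk14 (1.14), Tnfsf9 (1.27), Ptger4 (1.14), Clec2d (-1.56) and Irf4 (-1.88) were called as well. Leaving out LPS replicate 2 as well, an alternative chosen after the array distances were seen, gave 2535 (9.38%). Both arrays were doubted because they lay near the other group, so that their removal enlarges the difference by construction and these calls support nothing. With the actin ratio added to these fits, 7 probe sets were called without SMD 100 replicate 3 and 0 without both arrays, where 2342 had an unadjusted p under 0.05. Without both arrays the actin ratio itself separated the groups, at 1.93 and 2.17 in LPS and 4.33 and 11.6 in SMD 100. The fall in calls therefore cannot tell RNA quality from the SMD treatment. Leaving out any other of the 14 arrays called 0.

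The comparisons of 200 and 300 mg/kg with LPS share the LPS arrays with this one, so only signals and the differences between doses are given. The differences between doses in turn use the SMD 100 arrays by which many of these genes were named, which favours a return towards LPS, so returns are given as signals with no test. The actin ratio also differed between doses. It was 4.33, 11.6 and 2.72 at 100 mg/kg, 9.66, 9.03 and 10.7 at 200 and 6.99, 16.2 and 18.9 at 300. Its part in the differences between doses was not tested. Srxn1 read 2515, 2662 and 2572 at 200 mg/kg and 5654, 1237 and 2464 at 300, and its differences from 100 mg/kg were not called (0.82 and 0.82; adjusted p = 0.338 and 0.168). H1f2, a linker histone, read 395, 378 and 330 in LPS, 794, 1132 and 809 at 100 mg/kg, 2832, 3034 and 1255 at 200 and 6082, 8164 and 5540 at 300. It was higher than at 100 mg/kg by 1.28 ± 0.27 log2 at 200 (adjusted p = 0.0296) and by 2.83 ± 0.27 at 300 (adjusted p = 4.82e-06).

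Il6 read 15600, 15491 and 13388 at 200 mg/kg and 21677, 26130 and 24816 at 300, all above every SMD 100 array, and was called higher at 300 than at 100 mg/kg (1.86 ± 0.31 log2, adjusted p = 0.000357) and not at 200 (1.15 ± 0.31, adjusted p = 0.0779). Clec2d read 46.4, 75.9 and 166 at 300 mg/kg, lower than at 100 mg/kg (-2.15 ± 0.35 log2, adjusted p = 0.000309). Lcn2 read 2302, 1672 and 3519 at 300 mg/kg (-2.11 ± 0.22 log2 against 100 mg/kg, adjusted p = 8.228e-06). Adm read 4574, 5271 and 9205 and Tnfsf9 1820, 1718 and 2125 at 300 mg/kg, where 2 of the Adm and all 3 of the Tnfsf9 values lie under every SMD 100 array. Hvcn1 read 1383, 2278 and 1493 and Cdkn1a 2280, 2913 and 1970 at 300 mg/kg, in or above the range of the LPS arrays. Irf4 read 423, 333 and 302 there, inside the range of the SMD 100 arrays.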

How the data were processed

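RNA was extracted with Trizol and labelled from about 7.5 µg, per the labels' protocols. The authors deposited MAS5 signals, which are linear intensity values of each probe set, per the submitters' processing notes, and no value was below 0. They were not renormalised. Control probe sets (64) were left out. Probe sets were named through the platform's annotation, with symbols updated by Entrez number for 34741 of them. Of 45037 probe sets 34945 had 1 symbol, 932 several and 9160 none. limma 3.58.1 in R 4.3.3 (group means, variance trend, two-sided, Benjamini-Hochberg over 27022 probe sets) was fitted on all 14 arrays, which left 9 residual degrees of freedom. The brightest probe set stood for a gene. The code was tested on simulated data. Genes were named by a rule (12 genes fixed by name, the largest separated differences, up to 4 per list, single-array extremes), and the members and gene lists were chosen with earlier results of these data known. The number of arrays limits the precision. Alternatives covered the pseudocount, filter, scaling, arrays fitted, weights, the actin ratio and each array left out.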

Additional observations from a re-analysis of the deposited data

How the results depend on the processing

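The count of called probe sets stayed at 0 under every alternative listed in the processing summary except array weights (301) and the fit without SMD 100 replicate 3 (470), so leaving out single arrays gave 0 to 470. Alternatives added after seeing the data gave 2535 without LPS replicate 2 and SMD 100 replicate 3, and 7 without SMD 100 replicate 3 with the actin ratio as a covariate. Counts separated by 1 log2 or more, higher and lower, were 85 and 73 with a pseudocount of 64, 998 and 982 with no filter, 125 and 94 with 60% left out, 147 and 122 with 1 value per gene, and 1455 and 3110 without both arrays. Without single arrays of the 6 compared they ranged from 584 to 943 and from 609 to 1698; arrays of the other groups do not enter these counts. Probe sets at an unadjusted p under 0.05 numbered 5199 with array weights, 1121 with 1 value per gene, 6500 without both arrays and 1400 to 4868 without single arrays. The causes were not tested. With the replicate block the counts were 0 called and 2537 at an unadjusted p under 0.05. The labels do not say that the numbers pair the arrays. The correlations of deviations between same-numbered LPS and SMD 100 arrays were -0.067, 0.185 and 0.114. They cannot tell whether the numbers pair the arrays, since deviations from a mean of 3 arrays depend on one another. Of 89 genes checked, 6 without a call turned sign. Without single arrays the log2 difference ranged from -0.59 to 0.38 for Hmox1, -1.14 to 0.16 for Il12b, -0.21 to 0.088 for Cxcl10, -0.24 to 0.66 for Ifnb1 and -1.94 to 0.11 for C1qa. With the actin ratio it was 0.20 for Hmox1 and 0.59 for C1qa, without both arrays 0.26 for Il12b and 0.097 for Cxcl10, with array weights 0.029 for Cxcl10, and with 1 value per gene -0.16 for Tlr4. Signal over background limits dim genes such as Nqo1.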
